A study of Mus musculus with 28 samples.

Results

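Microglia sorted from the brains of mice with amyloid were compared with microglia sorted from amyloid-free mice, over both Cre states. The members are 13 of the series' 28 libraries: the 9 microglia libraries of APPPS1 mice 439, 443, 447, 458, 460, 469, 475, 774 and 779, and the 4 microglia libraries of amyloid-free mice 22, 26, 465 and 759. They were chosen by genotype and by sort, and mouse 459 was left out because each of its libraries holds genes of the other sort. The remaining libraries are the microglia of mouse 459 and the astrocytes of all the animals.

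All 13 mice carried floxed human APOE4 alleles (APOE4fl/fl), so the amyloid-free animals carried them too. The APPPS1 Cre-negative group (APPPS1::APOE4fl/fl) held 5 mice and the APPPS1 Cre-positive group (APPPS1::APOE4fl/fl::ALDH1L1-CreERT) held 4. The amyloid-free groups, APOE4fl/fl and APOE4fl/fl::ALDH1L1-CreERT, held 2 mice each. The APPPS1 transgenes encode mutant human amyloid precursor protein and presenilin 1 and are neuronal in this line. ALDH1L1-CreERT is a tamoxifen-dependent recombinase driven by an astrocyte promoter, so microglia of Cre-positive mice are not its intended target. Every mouse, with Cre or without, was given tamoxifen in 2 intraperitoneal doses of 100 mg/kg when 3.8 months old, and its cells were sorted 10 days after that. Cortex, hippocampus and thalamus were dissociated, and CD11b-Cy7 marked the microglia in the sort. CD11b is also carried by monocytes, neutrophils and border macrophages.

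Microglia are the resident macrophages of the brain. Around amyloid plaques they are known to divide, to surround the deposits and to switch on a disease-associated gene set that includes lipid-handling, lysosomal and adhesion genes. They depend on colony-stimulating factor signalling to survive and to proliferate. Growth and engulfment also draw on protein synthesis, on amino acid and nucleotide supply, on acid transport into lysosomes and on the signals that control them. The gene lists below follow those functions.

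The libraries held 26162612 to 57950591 counts, and 0.042 to 0.167% of them fell on human genes. Human APP had 36 to 342 counts in the 9 APPPS1 libraries (median 109.0) and 0 to 2 in the 4 amyloid-free ones, so the groups did not overlap. Levels below are CPM, counts scaled by library size. The 15 microglia identity markers were detected in every library and summed to 44890 to 56690 CPM in 12 of them. Mouse 26, amyloid-free and Cre-positive, stood apart at 23700 CPM. It also had the highest mitochondrial share, 3.18% against 0.96 to 1.57% elsewhere, and the highest sum of monocyte and neutrophil markers, 9156 CPM. Genes of patrolling monocytes, chosen after their values were seen, were high there: Treml4 was 449 CPM against at most 115 in the other 12 libraries, and Spn, the sialophorin CD43, was 151 against at most 26.4. The list counts below are therefore also given with mouse 26, and in turn other amyloid-free mice, left out.

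Markers of other cell types differed between the libraries. The 18 astrocyte markers summed to 370.8 to 479.7 CPM in amyloid-free and 160.7 to 282.5 CPM in APPPS1 libraries, with no overlap, and 0 to 4 of them were at 0 in a library. Their mean log2 level, relative to the amyloid-free mean, did overlap. Mouse 465 was at -1.63, level with APPPS1 mouse 774 and under mice 447 (-0.99) and 469 (-0.63). Mice 759, 22 and 26, at -0.2, 0.97 and 0.85, lay above all APPPS1 mice. The median change of these genes was -0.57 in Cre-negative and -3.49 in Cre-positive mice. Endothelial markers (16 genes) summed to 137.2 and 145.0 CPM in Cre-negative controls, inside the APPPS1 range of 110.3 to 179.9, and to 202.3 and 409.0 in mice 22 and 26 (list medians -0.17 and -2.12 in the 2 Cre states). Border macrophage markers (10 genes) went opposite ways in the 2 states, with list medians of -0.96 and 1.27. They summed to 553.6 and 432.3 CPM in Cre-negative controls, above every APPPS1 library (157.4 to 316.3), and to 185.0 and 304.9 in mice 22 and 26, and 1 of the 10 was lower and 0 higher over both states. Neuron markers (15 genes) summed to 14.96 to 35.2 against 4.843 to 12.43 CPM. Monocyte and neutrophil markers (15 genes) summed to 1682 to 9156 in amyloid-free libraries and to 282.2 to 7307 in APPPS1 libraries, with mouse 439 at the top of the latter. The part of these cells in the results below was not tested, beyond a fit with a marker covariate given next. In bulk samples, fewer cells of a type and less RNA per cell cannot be told apart.

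Across 17593 mouse genes tested, 1066 (6.06%) were higher and 619 (3.52%) were lower in APPPS1 microglia, 1685 in all (9.58%), at an adjusted p below 0.05 by edgeR's quasi-likelihood test with Benjamini-Hochberg adjustment. The test takes the mean of the 2 APPPS1 groups minus the mean of the 2 amyloid-free groups, so that each Cre state weighs the same. The median log2 change of all genes tested was -0.053. In 484 genes (2.75%) all 9 APPPS1 libraries lay above all 4 amyloid-free ones, and in 219 (1.24%) all lay below. With 4 amyloid-free mice these counts moved with single animals: 318 genes were higher and 74 lower without mouse 759, 501 and 149 without mouse 465, 379 and 53 without mouse 26, and 1312 and 674 without mouse 22. Each of the 13 libraries was left out in turn, and 244 of the higher and 21 of the lower genes passed in all 13 of these fits. Genes named below passed in all 13 unless the libraries they depend on are given. With the mean level of astrocyte and endothelial markers as a covariate, edgeR called 1 gene higher (Baiap2l2, an actin- and membrane-bending protein) and 0 lower, with 701 genes at an unadjusted p below 0.05. Of the 1685 genes, 1643 kept their direction in that fit. The covariate, a mean log2 CPM over 34 markers, was 0.81, 1.79, 2.91 and 3.28 in amyloid-free mice 465, 759, 22 and 26 and 0.07 to 1.51 in APPPS1 mice, so 3 of the 4 controls lay above all APPPS1 mice and mouse 465 lay among them. The part of these markers in the lost calls was not tested further.

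**Figure D1:**
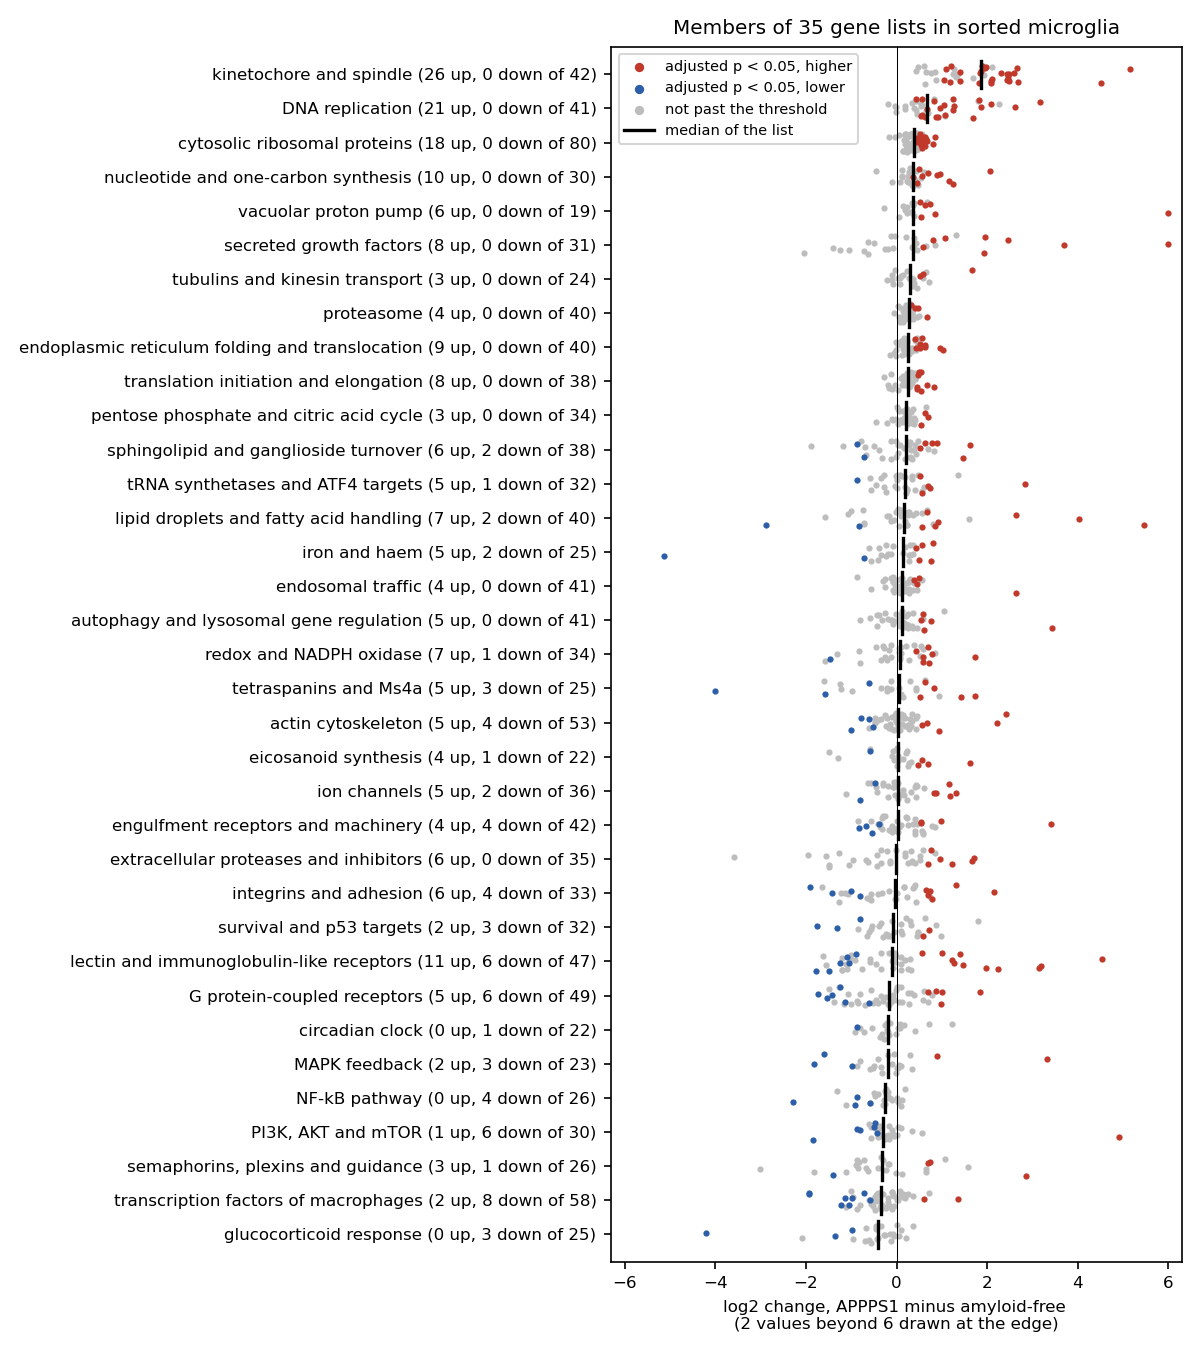
Log2 change (APPPS1 minus amyloid-free, x axis) of each tested member of 35 gene lists (rows, ordered by median). Points are genes, red where higher and blue where lower at an adjusted p below 0.05 by edgeR, grey otherwise, and black bars are list medians; the kinetochore list has the highest median, 1.86, and the glucocorticoid list the lowest, -0.40.

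Genes of cell division had the highest list median, as the plot of all list members shows. Of 42 kinetochore and spindle genes, 26 (61.9%) were higher and 0 lower, and all 42 had a positive change, with a median of 1.86. The median over genes of like exon length and level was -0.07. Of 41 DNA replication genes, 21 (51.2%) were higher and 0 lower, with a median of 0.67 against 0.02 for like genes. These counts are far above the 6.06% of all genes. Without mouse 26 they were 17 and 5, without mouse 759 they were 10 and 4, and without mouse 465 they were 22 and 8. In all 13 leave-one-out fits, 10 kinetochore and 2 replication genes passed.

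Nuf2 (chr1:169497934-169531464, GRCm38), part of the Ndc80 complex that ties kinetochores to microtubules, had 1.02 and 1.05 CPM in Cre-negative mice 465 and 759 and 1.68 and 1.54 in Cre-positive mice 22 and 26. The 9 APPPS1 libraries ranged from 3.89 to 11.4 with a median of 6.06. Every APPPS1 library was above every amyloid-free one, and the log2 change was 2.45 ± 0.32 (SE, 9 and 4 mice; edgeR adjusted p = 0.00123). Spc25, another subunit of that complex, changed by 2.43 ± 0.34 (adjusted p = 0.00162). Knl1, the scaffold that docks the complex, had 40 counts over the 4 amyloid-free libraries and 47 to 456 in each APPPS1 library. Cenpe, a kinesin that moves chromosomes to the spindle equator, changed by 2.67 ± 0.42 (adjusted p = 0.00282), although its lowest APPPS1 library, at 1.71 CPM, lay under mice 22 and 26.

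Among the replication genes, Mcm6, a subunit of the helicase that opens the double strand, had 16.2, 10.4, 12.1 and 15.9 CPM in amyloid-free mice 465, 759, 22 and 26. The APPPS1 libraries ranged from 19.6 to 51.1 (median 30.5). Their lowest value was above all 4 controls, and the change was 1.28 ± 0.23 (edgeR adjusted p = 0.00686). Prim1, the catalytic primase subunit that starts each new strand, had 3.07 to 3.64 CPM in amyloid-free mice and 5.38 to 12.3 in APPPS1 mice (1.25 ± 0.24, adjusted p = 0.00863). Mcm5, a further helicase subunit, rose by 1.85 ± 0.35 (adjusted p = 0.00839) and did not pass without mouse 759 (adjusted p = 0.0529). The mean level of the kinetochore list, set to 0 at the amyloid-free mean, was -0.80 to 0.57 in amyloid-free mice and 0.49 to 2.62 in APPPS1 mice. Mouse 469 was the lowest APPPS1 mouse at 0.49 and lay under mouse 26, and mouse 475 was the highest.

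Promoters of kinetochore genes are known to carry a cell cycle homology region, the element through which mitotic genes are held silent in resting cells. Its core letters TTTGAA were sought on both strands in the 250 bases before each RefSeq start. They were found in 9 of 37 kinetochore genes with a promoter entry (24.3%), in 6 of the 22 that were higher (27.3%), and in 1553 of all 11712 tested genes with an entry (13.3%). Promoters on a chromosome named with the E-box stretches below were not considered for print. The 3 higher genes left are those whose stretch lies outside the gene as the deposited annotation places it. They are shown in order of p, with the match in capitals, to let the letters be read beside the counts. A match is a description of these letters and not a binding site. The stretches are chr7:127042610-127042655 (minus strand), chr3:27153967-27154012 (minus strand) and chr19:37376343-37376381 (plus strand), from RefSeq on GRCm38.p6, 5′ to 3′.
Kif22: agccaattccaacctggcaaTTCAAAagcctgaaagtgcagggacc
Ect2: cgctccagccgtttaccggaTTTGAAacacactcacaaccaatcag
Kif11: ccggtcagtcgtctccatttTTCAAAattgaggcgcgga
Kif22, a chromosome-arm kinesin, changed by 1.96 ± 0.34 (edgeR adjusted p = 0.00543) and passed in all 13 leave-one-out fits. Ect2, which places the cleavage furrow, changed by 1.19 ± 0.30 (adjusted p = 0.0283) and passed in 9 of 13, with an adjusted p of 0.126 without mouse 759. Kif11, the motor that separates the spindle poles, changed by 1.82 ± 0.49 (adjusted p = 0.0336) and passed in 7 of 13, with an adjusted p of 0.132 without mouse 26.

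**Figure D2:**
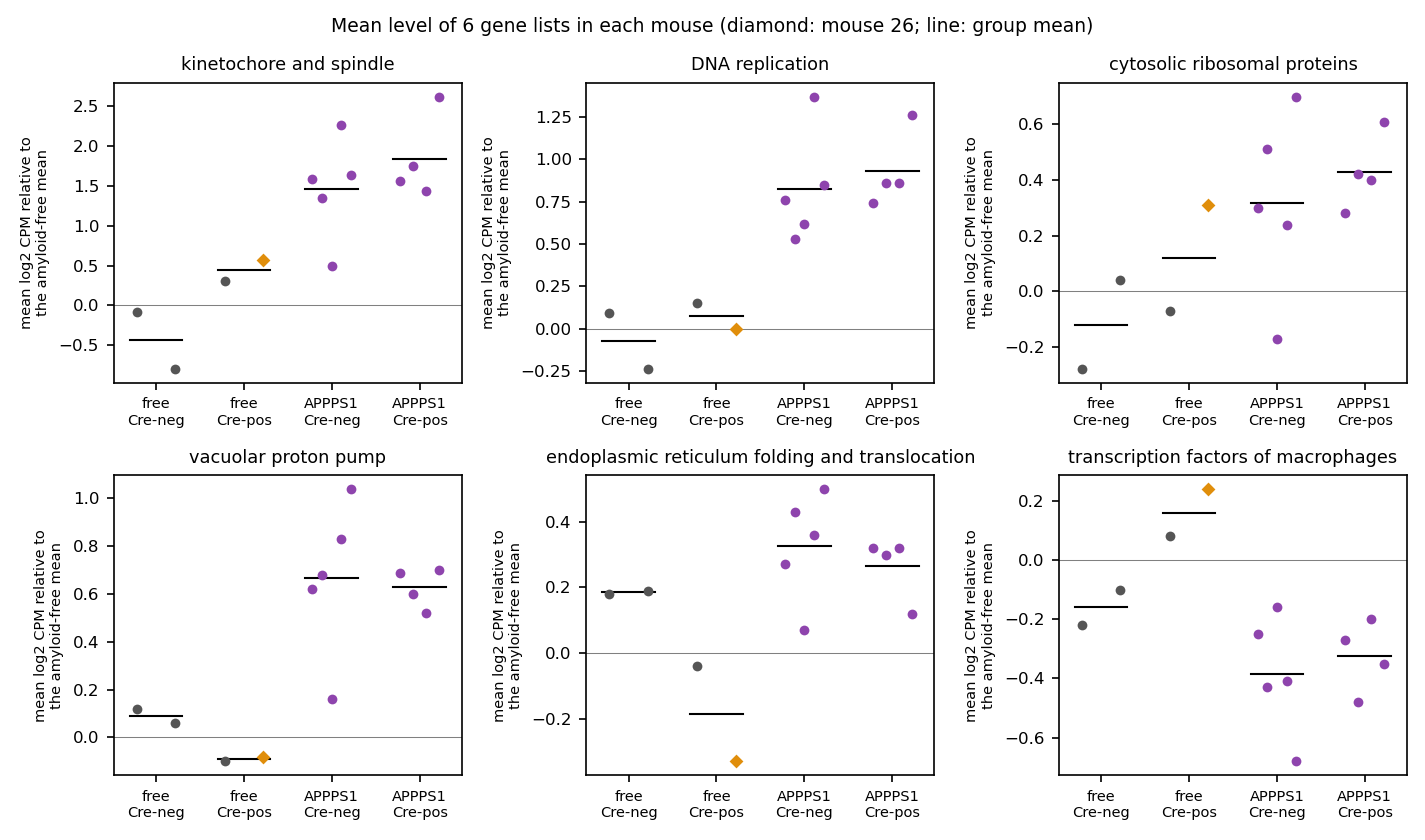
Mean log2 CPM of the members of 6 gene lists in each mouse, relative to the amyloid-free mean (y axis), by genotype and Cre state (x axis). Each point is a mouse, the orange diamond is mouse 26 and lines are group means; the DNA replication and proton pump values of all 9 APPPS1 mice lie above those of all 4 amyloid-free mice, and the ribosomal values overlap.

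Genes that supply division were called upward only. Of 30 nucleotide and one-carbon synthesis genes, 10 (33.3%) were higher and 0 lower (median 0.37, like genes 0.02). Without mouse 465, 759 or 26 the count was 4, 2 and 2, with list medians of 0.50, 0.37 and 0.38. Rrm2, the ribonucleotide reductase subunit made in dividing cells, had 4.51, 5.03, 8.2 and 4.86 CPM in mice 465, 759, 22 and 26 and 6.25 to 42.4 in APPPS1 mice (median 22.6). The groups overlapped only through mouse 22, and the change was 2.07 ± 0.38 (edgeR adjusted p = 0.00678). Tyms, which makes thymidylate, rose by 0.96 ± 0.21 (adjusted p = 0.0132) and did not pass without mouse 759 (adjusted p = 0.0725) or mouse 26 (adjusted p = 0.0626). Shmt2, the mitochondrial enzyme that feeds serine into the one-carbon pool, rose by 0.69 ± 0.15 (adjusted p = 0.0155) and depended on the same mice (adjusted p = 0.0771 and 0.0658).

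Psat1 (chr19:15904678-15947337, GRCm38), which makes serine from a glycolytic intermediate and is a known target of the stress factor ATF4, changed most among 32 tRNA synthetases and ATF4 targets. It had 25.2, 25.1, 25.6 and 13.1 CPM in mice 465, 759, 22 and 26. APPPS1 libraries ranged from 48.1 to 257 with a median of 163. No library overlapped, and the log2 change was 2.83 ± 0.38 (edgeR adjusted p = 0.0013). Of the list, 5 genes (15.6%) were higher and 1 lower, with a median of 0.19. Mice 465, 759, 22 and 26 left out in turn gave 3, 1, 8 and 1 higher and 0, 0, 1 and 0 lower. Sars, the seryl-tRNA synthetase, rose by 0.56 ± 0.13 (adjusted p = 0.0196), but not without mouse 465, 759 or 26 (largest adjusted p = 0.0729). Nupr1, a stress-induced chromatin protein, went the other way by -0.88 ± 0.21 (adjusted p = 0.0213). It was 343 CPM in mouse 26 and 126 to 144 in the other amyloid-free mice, did not pass without mouse 465, 759 or 26, and without mouse 26 its change was -0.42 (adjusted p = 0.202).

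The translation genes that were called were all higher, by small amounts. Of 80 cytosolic ribosomal protein genes, 18 (22.5%) were higher and 0 lower, and 78 had a positive change with a median of 0.38. Genes of like exon length and level had nearly the same median, 0.31. No ribosomal gene passed in all 13 leave-one-out fits, 7 were called without mouse 22, 4 without mouse 26, 1 without mouse 759 and 0 without mouse 465. Rps2, a protein of the small subunit near the decoding site, had 144, 195, 148 and 196 CPM in mice 465, 759, 22 and 26 and 210 to 410 in APPPS1 mice (0.85 ± 0.18, edgeR adjusted p = 0.0122; 0.0557 without mouse 465). Ribosomal protein genes have many near-identical processed copies in the genome, so their counts are uncertain.

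Of 38 initiation and elongation factors, 8 (21.1%) were higher and 0 lower, with a median of 0.25 against 0.13 for like genes. The count fell to 2 without mouse 465, to 1 without mouse 759, to 5 without mouse 22 and to 3 without mouse 26, while the median was 0.27, 0.29, 0.29 and 0.32, and 1 gene passed in all 13 fits. Eef1a1, which delivers aminoacyl-tRNA to the ribosome, had 3374, 3663, 3198 and 3298 CPM in mice 465, 759, 22 and 26 and 3980 to 8043 in APPPS1 mice (median 5735). The lowest APPPS1 value was above the highest control, and the change was 0.83 ± 0.16 (edgeR adjusted p = 0.00898). Of 40 genes of endoplasmic reticulum translocation and folding, 9 (22.5%) were higher and 0 lower (median 0.26, like genes 0.21). Leaving out mouse 465, 759, 22 or 26 gave 2, 1, 14 and 1. Ssr4, part of the translocon-associated complex, had 178, 186, 155 and 128 CPM in these amyloid-free mice and 184 to 437 in APPPS1 mice (0.97 ± 0.19, adjusted p = 0.00843). Of 40 proteasome genes, 4 (10.0%) were higher and 0 lower, with a median of 0.27 against 0.21 for like genes, and 0 were called without mouse 465, 759 or 26. The catalytic subunit gene Psmb6 changed by 0.67 ± 0.15 (adjusted p = 0.016), and did not pass without mouse 465, 759 or 26 (largest adjusted p = 0.0658).

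The ribosomal and proteasome lists hold short genes, and the change fell with exon length over all genes. Over protein-coding genes cut into 5 groups by exon length, the median change went from 0.16 in the shortest through 0.10, 0.02 and -0.08 to -0.22 in the longest. The share called higher went from 11.6% in the shortest group to 3.33% in the longest. In each library the median level of the shortest minus the longest group was -0.13, -0.16, -0.41 and -0.30 in mice 465, 759, 22 and 26, and -0.29 to 0.51 in APPPS1 mice. The groups overlapped through mouse 469, at -0.29. The part of this length trend in the ribosomal and proteasome counts was not tested beyond the like-gene medians above.

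**Figure D3:**
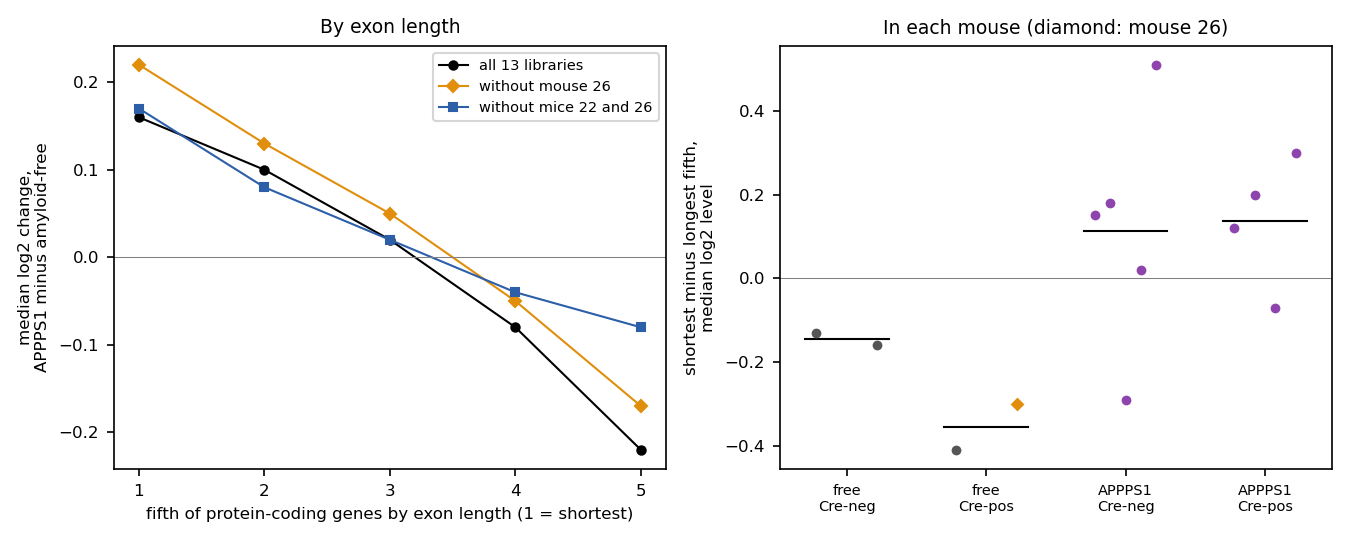
Left, median log2 change (APPPS1 minus amyloid-free) in 5 groups of protein-coding genes by exon length, for all 13 libraries, without mouse 26 and without mice 22 and 26. The curve without mice 22 and 26 compares Cre-negative mice only. Right, median log2 level of the shortest minus the longest group in each mouse, with lines as group means; the left curves fall from short to long genes, from 0.16 to -0.22 with all libraries, and mouse 469 at -0.29 lies among the amyloid-free values.

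Genes of lysosomal acid transport and nutrient sensing were called upward. Of 19 genes of the vacuolar proton pump, which acidifies lysosomes, 6 (31.6%) were higher and 0 lower (median 0.37, like genes 0.13). Of 41 autophagy and lysosomal regulation genes, 5 (12.2%) were higher and 0 lower, with a median of 0.11. Of 38 genes of sphingolipid and ganglioside turnover, 6 (15.8%) were higher and 2 lower, with a median of 0.21. Without mouse 26 the counts were 2, 2 and 3 higher, without mouse 759 they were 1, 3 and 2, and without mouse 465 they were 3, 2 and 3, with 0 lower in these fits. Without mouse 22 the sphingolipid list had 9 higher and 4 lower, and the autophagy list 4 higher and 1 lower.

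Rragd (chr4:32983037-33022180, GRCm38), a small GTPase that recruits mTORC1 to lysosomes, had 0.374, 0.0894, 0.661 and 0.752 CPM in mice 465, 759, 22 and 26. In APPPS1 mice it had 1.54 to 6.51 CPM (median 3.86), all above the controls, with a log2 change of 3.42 ± 0.46 (edgeR adjusted p = 0.0013). Lamtor1, which anchors that GTPase complex to the lysosome, had 126, 134, 98.9 and 100 CPM in these amyloid-free mice and 153 to 252 in APPPS1 mice. It too did not overlap, and changed by 0.76 ± 0.15 (adjusted p = 0.00862). Atp6v0d2, the pump subunit of osteoclasts and activated macrophages, had 5 counts in all over the 4 amyloid-free libraries and 0.0962 to 11.5 CPM (median 4.65) in APPPS1 libraries. The pump's widely used subunits changed less. Atp6v0c, of the proton-carrying ring, changed by 0.86 ± 0.18 (adjusted p = 0.0119; 0.0634 without mouse 759 and 0.0566 without mouse 26). Atp6v1a, the ATP-splitting subunit, changed by 0.63 ± 0.14 (adjusted p = 0.0149; 0.0657 without mouse 759). Rab7b, a GTPase of late endosomes, rose by 2.64 ± 0.44 (adjusted p = 0.0043), while of 41 endosomal traffic genes only 4 (9.76%) were higher and 0 lower, and 2, 1 and 1 were higher without mouse 465, 759 or 26.

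Hexa and Glb1, of the sphingolipid list, take sugars off gangliosides. Hexa, the alpha chain of hexosaminidase, had 943, 730, 665 and 409 CPM in mice 465, 759, 22 and 26 and 1150 to 3016 in APPPS1 mice, without overlap (1.46 ± 0.23, edgeR adjusted p = 0.00294). Glb1, lysosomal beta-galactosidase, changed by 1.62 ± 0.25 (adjusted p = 0.00282), with mouse 465 level with the lowest APPPS1 mouse at 112 CPM. Ugcg, which makes glucosylceramide, had 23.6, 23.1, 24.8 and 36.5 CPM in these amyloid-free mice and 8.44 to 18.9 in APPPS1 mice. The groups did not overlap and the change was -0.71 ± 0.17 (adjusted p = 0.0191), but it did not pass without mouse 465, 759 or 26 (largest adjusted p = 0.132).

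Lysosomal genes are known to share an E-box, the palindrome CACGTG, that transcription factors of the TFEB and MITF family bind. It was found in the 250 bases before the start in 18 of 78 genes of these 3 lysosomal lists with a promoter entry (23.1%), in 4 of the 12 that were higher (33.3%), and in 1103 of all 11712 genes (9.42%). Among all genes that were higher the share was 11.3%, and among those that were lower 7.73%. The 3 higher members of lowest p whose stretch lies outside the annotated gene are shown for the letters around the match, which is in capitals. They lie at chr9:114401010-114401055, chr7:101905749-101905794 and chr5:138255342-138255387, all on the plus strand of GRCm38.p6, from RefSeq, 5′ to 3′.
Glb1: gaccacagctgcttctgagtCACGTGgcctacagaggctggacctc
Lamtor1: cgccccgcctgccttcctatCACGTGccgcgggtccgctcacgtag
Lamtor4: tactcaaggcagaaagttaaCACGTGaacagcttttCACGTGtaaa
Lamtor4, a partner of Lamtor1 whose promoter held 2 matches, had 77 to 99.3 CPM in amyloid-free and 94.3 to 192 in APPPS1 mice. Its change was 0.59 ± 0.15 (edgeR adjusted p = 0.0303), and it passed in 7 of 13 leave-one-out fits, with an adjusted p of 0.0997 without mouse 465.

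Of 47 lectin and immunoglobulin-like receptors, 11 (23.4%) were higher and 6 (12.8%) lower, with a median of -0.11. With mouse 465, 759 or 26 left out, 8, 7 and 8 were higher and 0 lower, and without mouse 22, 11 were higher and 13 lower. Pdcd1, the checkpoint receptor PD-1 best known from T cells, had 3.57, 2.86, 2.73 and 1.74 CPM in mice 465, 759, 22 and 26 and 21.8 to 162 in APPPS1 mice (median 47.3). No library overlapped and the change was 4.53 ± 0.55 (edgeR adjusted p = 0.000793). Cd5, a scavenger-type receptor of lymphocytes, had 0.205 to 1.34 CPM in amyloid-free and 3.44 to 19.6 in APPPS1 mice (3.19 ± 0.51, adjusted p = 0.00302). The 16 lymphocyte markers summed to 585.6 to 857.1 CPM in amyloid-free and 795.4 to 1039 in APPPS1 libraries, and 1 of the 12 tested was higher and 1 lower. The median change of those tested went the other way, at -0.72, with 0.18 in Cre-negative and -2.25 in Cre-positive mice. The part of lymphocytes in Pdcd1 and Cd5 was not tested.

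Cd200r4, a member of the CD200 receptor family, rose by 3.14 ± 0.47 (edgeR adjusted p = 0.00231), and Cd72, an inhibitory lectin, by 1.97 ± 0.33 (adjusted p = 0.00439). The 6 lower receptors were Clec4a1, Clec4a3, Clec4e, Clec12a, Siglecg and Sirpb1a, and 0 of them passed without mouse 26. Clec4e, a sensor of mycobacterial lipid, shows the pattern: it was 397 CPM in mouse 26 and 23.4 to 60.8 in the other amyloid-free mice, and its change of -1.77 ± 0.49 (adjusted p = 0.0373) was -0.76 without that mouse (adjusted p = 0.424). It passed in 4 of 13 fits. Of 25 tetraspanin and Ms4a genes, 5 (20%) were higher and 3 lower, with 3, 2, 8 and 2 higher and 0, 1, 5 and 0 lower as mice 465, 759, 22 and 26 were left out. Cd63, a tetraspanin of late endosomes, had 345 to 563 CPM in amyloid-free and 653 to 2474 in APPPS1 mice (1.74 ± 0.27, adjusted p = 0.00257). Cd9, its plasma membrane relative, rose by 1.42 ± 0.22 (adjusted p = 0.00282).

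Of 33 integrin and adhesion genes, 6 (18.2%) were higher and 4 (12.1%) lower. The lower calls fell in number when mouse 465, 759 or 26 was left out, and more higher than lower calls were left in each case. These fits leave 1 mouse in an amyloid-free group, and the part of that smaller group in the loss was not tested. Without mouse 22 the counts were 9 higher and 6 lower, and in all 13 fits 3 genes were higher and 0 lower. Cadm1 (chr9:47530173-47857637, GRCm38), a synaptic-type adhesion molecule, had 136, 150, 112 and 86.2 CPM in mice 465, 759, 22 and 26 and 174 to 449 in APPPS1 mice. The groups did not overlap and the change was 1.32 ± 0.21 (edgeR adjusted p = 0.0034). Itgax, the integrin CD11c, rose by 2.15 ± 0.40 (adjusted p = 0.00777); mouse 26 at 56.6 CPM lay above the lowest APPPS1 mouse, at 45. Nrp1, a co-receptor for semaphorins and growth factors, rose by 0.73 ± 0.15 (adjusted p = 0.00974). Itga4, the alpha-4 integrin of circulating leukocytes, was lower by -1.90 ± 0.45 (adjusted p = 0.0196). It was 222 CPM in mouse 26 and 9.77 to 26.1 in the other controls. It did not pass without mouse 465, 759 or 26, and without mouse 26 its change was -0.76 (adjusted p = 0.315).

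Of 53 actin cytoskeleton genes, 5 (9.43%) were higher and 4 (7.55%) lower. Lower calls numbered 1, 0, 4 and 1 and higher calls 2, 2, 3 and 5 without mouse 465, 759, 22 or 26, and 2 higher and 0 lower genes passed in all 13 fits. Myo1e, a membrane-linked myosin, had 10 to 21.4 CPM in amyloid-free and 49.1 to 184 in APPPS1 mice (2.42 ± 0.35, edgeR adjusted p = 0.00216). Capg, which caps filament ends, had 33 to 80.5 CPM in amyloid-free and 111 to 462 in APPPS1 mice (2.22 ± 0.36, adjusted p = 0.00386). Myh9, non-muscle myosin II, went down without overlap, from 597 to 880 CPM to 396 to 589 CPM (-0.61 ± 0.13, adjusted p = 0.0127; 0.0989 without mouse 759). Of 24 tubulin and kinesin transport genes, 3 (12.5%) were higher and 0 lower, and 1, 2, 5 and 1 were higher in those 4 fits. Among them Stmn1, which frees tubulin from microtubules and is high in dividing cells, had 20.1 to 28.6 CPM in amyloid-free and 34.8 to 124 in APPPS1 mice (1.66 ± 0.24, adjusted p = 0.00222).

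Of 42 engulfment genes, 4 (9.52%) were higher and 4 (9.52%) lower with all 13 libraries, with a median of 0.02, the same as for like genes. No lower call was left without mouse 465, 759 or 26, where 2, 1 and 1 were higher, and without mouse 22, 8 were higher and 4 lower. Over all 13 fits 1 gene was higher and 0 lower. Axl, a receptor for dying cells, had 10.8 to 21.4 CPM in amyloid-free and 63.1 to 333 in APPPS1 mice (3.40 ± 0.44, edgeR adjusted p = 0.000995). Syk, the kinase behind Fc and lectin receptors, was lower by -0.54 ± 0.13 (adjusted p = 0.0193), and Cd47, the membrane signal that blocks engulfment, by -0.67 ± 0.16 (adjusted p = 0.0196). Neither passed without mouse 465, 759 or 26, where the largest adjusted p was 0.138 for Syk and 0.161 for Cd47.

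Lipid, iron and redox genes gave some of the strongest single changes. Of 40 lipid droplet and fatty acid genes, 7 (17.5%) were higher and 2 lower. Without mouse 465, 759, 22 or 26, 6, 2, 9 and 5 were higher and 0, 0, 3 and 0 lower. Lpl, the lipase that releases fatty acids from lipoproteins, had 26.3, 14.6, 17.9 and 35.8 CPM in mice 465, 759, 22 and 26 and 164 to 703 in APPPS1 mice (4.03 ± 0.42, edgeR adjusted p = 0.00046). The fatty acid carrier Fabp3 had 0.134 to 1.06 CPM in amyloid-free and 3.58 to 52.8 in APPPS1 mice (5.45 ± 0.67, adjusted p = 0.000793). Its relative Fabp5 changed by 2.64 ± 0.52 (adjusted p = 0.00895; 0.0589 without mouse 759). Plin3, a coat protein of lipid droplets, changed by 0.85 ± 0.17 (adjusted p = 0.00921; 0.0592 without mouse 759).

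Of 22 eicosanoid synthesis genes, 4 (18.2%) were higher and 1 lower, and 2, 1, 5 and 1 were higher and 0, 0, 2 and 0 lower without mouse 465, 759, 22 or 26. Ephx1, an epoxide hydrolase, had 11.4 to 24.1 CPM in amyloid-free and 38.1 to 87.7 in APPPS1 mice (1.62 ± 0.26, edgeR adjusted p = 0.00294). Of 25 iron and haem genes, 5 (20%) were higher and 2 lower, which became 2, 0, 6 and 2 higher and 1, 0, 1 and 0 lower in the same fits. Fth1, the ferritin heavy chain, had 2861 to 3715 CPM in amyloid-free and 3548 to 7813 in APPPS1 mice (0.81 ± 0.17, adjusted p = 0.0131; 0.0599 without mouse 759). Slc11a1, which moves iron out of phagosomes, rose by 0.76 ± 0.18 (adjusted p = 0.0222; 0.0946 without mouse 759). Of 34 redox genes, 7 (20.6%) were higher and 1 lower. As these mice were left out the counts were 1, 3, 4 and 4 higher and 0, 0, 3 and 0 lower, and the median of 0.07 was 0.33 without mouse 26. Prdx4, a peroxidase of the endoplasmic reticulum, had 26.3 to 35.3 CPM in amyloid-free and 56.8 to 152 in APPPS1 mice (1.73 ± 0.24, adjusted p = 0.00162). Gsr, glutathione reductase, was the lower gene (-1.48 ± 0.34, adjusted p = 0.0191). It was 366 CPM in mouse 26 and 32.7 to 74 in the other controls. It did not pass without mouse 465, 759 or 26, and without mouse 26 its change was -0.67 (adjusted p = 0.244). Of 34 pentose phosphate and citric acid cycle genes, 3 (8.82%) were higher and 0 lower, 1 without mouse 465, 759 or 26, and Suclg2, a succinyl-CoA ligase subunit, was the only 1 to pass in all 13 fits (0.63 ± 0.12, adjusted p = 0.00843).

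Secreted growth factors were called upward only, but 18 of the 31 tested had a positive change. The list median was 0.36 in Cre-negative and 0.04 in Cre-positive mice. Of 31 secreted growth factors tested, 8 (25.8%) were higher and 0 lower, with a median of 0.37 against -0.06 for like genes. The count was 6, 3, 10 and 4 without mouse 465, 759, 22 or 26, and the median 0.46, 0.34, 0.44 and 0.32. Csf1, the ligand of the receptor on which microglia depend, had 42.9, 41.1, 49.3 and 33.7 CPM in mice 465, 759, 22 and 26 and 143 to 371 in APPPS1 mice (median 206). The groups were far apart, with a change of 2.46 ± 0.28 (edgeR adjusted p = 0.000701). Tnfsf8 (chr4:63831308-63861347, GRCm38), the CD30 ligand, had 0.893, 1.01, 3.25 and 1.44 CPM in these amyloid-free mice and 6.54 to 31 in APPPS1 mice, also without overlap (3.70 ± 0.41, adjusted p = 0.000701). Dkk2, a secreted regulator of Wnt receptors, had 1 count in all 4 amyloid-free libraries together and 1.47 to 22.9 CPM in APPPS1 libraries (median 10.6). Grn, progranulin, rose by 1.07 ± 0.20 (adjusted p = 0.00808; 0.0528 without mouse 759).

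Of 35 extracellular proteases and inhibitors, 6 (17.1%) were higher and 0 lower, and 2, 3, 9 and 3 were higher and 0, 0, 1 and 0 lower without mouse 465, 759, 22 or 26. The median of this protease list was -0.02, and 17 of the 35 had a positive change. Serpine2, an inhibitor of thrombin and plasminogen activators, had 355 to 1068 CPM in amyloid-free and 1272 to 4021 in APPPS1 mice (1.67 ± 0.27, edgeR adjusted p = 0.00322). Mmp12, the macrophage elastase, had 3.28 to 9.86 CPM in amyloid-free and 11 to 32.9 in APPPS1 mice (1.71 ± 0.31, adjusted p = 0.00619). Of 36 ion channels, 5 (13.9%) were higher and 2 lower, and 0 passed in all 13 fits. Those 4 fits gave 4, 0, 5 and 2 higher and 0 lower. Kcnj2, the inward rectifier potassium channel of microglia, had 16.1 to 25.8 CPM in amyloid-free and 27.9 to 72.4 in APPPS1 mice (1.18 ± 0.25, adjusted p = 0.0122; 0.0614 without mouse 759). Of 49 G protein-coupled receptors, 5 (10.2%) were higher and 6 (12.2%) lower. Here the 4 fits gave 2, 1, 7 and 2 higher and 0, 0, 6 and 2 lower. S1pr1, a receptor for sphingosine 1-phosphate, had 44.9 to 65.3 CPM in amyloid-free and 81.8 to 150 in APPPS1 mice (0.87 ± 0.17, adjusted p = 0.00863). Gpr84, a receptor for medium-chain fatty acids, rose by 1.01 ± 0.22 (adjusted p = 0.0143; 0.0667 without mouse 759, and not without mouse 465). Cxcr4, the chemokine receptor of mobile leukocytes, was lower by -1.24 ± 0.29 (adjusted p = 0.0197). It was 107 CPM in mouse 26 and 7.07 to 21.4 in the other controls. It did not pass without mouse 465, 759 or 26, and without mouse 26 its change was -0.42 (adjusted p = 0.287).

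Lower calls outnumbered higher ones in the lists of PI3K, NF-kB, macrophage transcription factor and glucocorticoid response genes, and by 1 gene each in 4 others: MAP kinase feedback, G protein-coupled receptors, circadian clock and survival and p53 targets. Of 30 PI3K, AKT and mTOR genes, 1 was higher and 6 (20%) lower, against 3.52% of all genes, with a median of -0.31 against -0.18 for like genes. Of 26 NF-kB pathway genes, 0 were higher and 4 (15.4%) lower (median -0.26, like genes 0.05). Of 58 macrophage transcription factors, 2 were higher and 8 (13.8%) lower (median -0.35, like genes 0.02). Of 25 glucocorticoid response genes, 0 were higher and 3 (12%) lower (median -0.40, like genes 0.01). Without mouse 26, edgeR called 0 PI3K, 0 NF-kB, 0 glucocorticoid and 1 transcription factor gene lower. The lower calls of these 4 lists also fell in number when mouse 465 or mouse 759 was left out instead. Each of these fits leaves 1 mouse in an amyloid-free group, and the part of that smaller group in the loss was not tested. The medians moved less in some lists. Without mouse 465, 759 or 26 the median was -0.21, -0.21 and -0.26 for PI3K, -0.37, -0.24 and -0.27 for the transcription factors, -0.32, -0.22 and -0.11 for NF-kB and -0.22, -0.27 and -0.19 for the glucocorticoid list. Without mouse 22 the NF-kB list had 7 lower, the PI3K list 3, the glucocorticoid list 1 higher and 3 lower, and the transcription factors 4 higher and 8 lower.

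Cebpb, which drives inflammatory genes in macrophages, had 45.9, 50.9, 68 and 334 CPM in mice 465, 759, 22 and 26 and 14.7 to 46.2 in APPPS1 mice (median 26). Its change was -1.94 ± 0.31 (edgeR adjusted p = 0.0034) and -1.13 without mouse 26 (adjusted p = 0.0457), so this call was kept at a smaller size. Klf2 (chr8:72319033-72321656, GRCm38), a factor that holds macrophages quiescent, had 12.9, 40.5, 85.7 and 238 CPM in these mice and 6.52 to 27.3 in APPPS1 mice. Its change was -1.92 ± 0.34 (adjusted p = 0.00567), and it did not pass without mouse 26 (adjusted p = 0.052) or mouse 759 (adjusted p = 0.0607). Klf4, a related factor, fell from 59.8 to 163 CPM to 17 to 54.5 CPM without overlap (-1.22 ± 0.23, adjusted p = 0.00829; 0.0597 without mouse 26). The 2 factors that rose did so in all 13 fits. Hif1a, the oxygen-sensing factor, had 50.6, 64.6, 65.6 and 68.4 CPM in mice 465, 759, 22 and 26 and 79.8 to 233 in APPPS1 mice (1.36 ± 0.27, adjusted p = 0.00949). Irf8, a lineage factor of microglia, had 265 to 320 CPM in amyloid-free and 368 to 560 in APPPS1 mice (0.60 ± 0.12, adjusted p = 0.00984).

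Among feedback inhibitors of MAP kinase signalling, 2 of 23 were higher and 3 (13%) lower. Without mouse 465, 759, 22 or 26, 0, 1, 2 and 1 were higher and 2, 1, 4 and 1 lower. Spry2 (chr14:105891947-105896819, GRCm38), which blocks receptor tyrosine kinase signals, had 7.21, 6.86, 20.8 and 26.2 CPM in mice 465, 759, 22 and 26 and 1.94 to 6.4 in APPPS1 mice (median 3.31). The groups did not overlap, and the change was -1.82 ± 0.27 (edgeR adjusted p = 0.00217) and -1.71 without mouse 26 (adjusted p = 0.0187). Dusp5, a phosphatase of ERK, fell by 1.6 ± 0.33 on the log2 scale (adjusted p = 0.0105), but not without mouse 759, nor without mouse 26 (adjusted p = 0.132). Igf1, a growth factor, was the higher gene of the PI3K, AKT and mTOR list at 55.5 to 350 CPM against 3.32 to 9.88 (4.92 ± 0.49, adjusted p = 0.000319). Tnip3, an NF-kB inhibitor, was lower by -2.28 ± 0.44 (adjusted p = 0.00837; 0.0726 without mouse 26). Rel, an NF-kB subunit of immune cells, was lower without overlap (-0.87 ± 0.20, adjusted p = 0.0177) and did not pass without mouse 465, 759 or 26 (largest adjusted p = 0.111). Cdkn1b, the cell cycle inhibitor p27, was lower by -1.32 ± 0.24 (adjusted p = 0.00718) and did not pass without mouse 759 or 26 (largest adjusted p = 0.0537). Gadd45a, a p53 target, was lower by -1.76 ± 0.34 (adjusted p = 0.00894; 0.0845 without mouse 26).

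Among the 21 genes that were lower in all 13 fits were Notch2, Jag1 and Hes1, which were chosen after their values were seen. No list of Notch pathway genes was counted, so they are given as single genes. Notch2, the receptor, had 524, 580, 671 and 820 CPM in mice 465, 759, 22 and 26 and 237 to 503 in APPPS1 mice (-0.92 ± 0.17, edgeR adjusted p = 0.00784). Jag1, a ligand, had 13.5, 8.65, 17.2 and 28.6 CPM in these mice and 3.1 to 10 in APPPS1 mice (-1.35 ± 0.24, adjusted p = 0.00567), with an overlap through mouse 759. Hes1, the best known target, had 23.5, 39.9, 43.8 and 76.3 CPM and 10.8 to 19.2 in APPPS1 mice, without overlap (-1.48 ± 0.17, adjusted p = 0.000701). Without mouse 26 the changes were -0.82, -1.13 and -1.23. Astrocytes also express Jag1 and Hes1, and the astrocyte marker sum was lower in the same libraries. By the mean log2 level of those markers, mouse 465 lay among the APPPS1 mice. The part of astrocyte RNA in these genes was not tested. Other members of the 21 are known astrocyte genes: Slc1a2, the glutamate transporter, had 2.41 to 20.5 CPM in amyloid-free and 1.22 to 4.02 in APPPS1 mice, and Clu, clusterin, had 3.67 to 35.3 and 1.18 to 10.2 CPM. The chromatin genes Tet2, a DNA demethylase (-0.85 ± 0.16, adjusted p = 0.00662), and Kmt2d, a histone methyltransferase (-0.89 ± 0.17, adjusted p = 0.00894), were also among them.

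**Figure D4:**
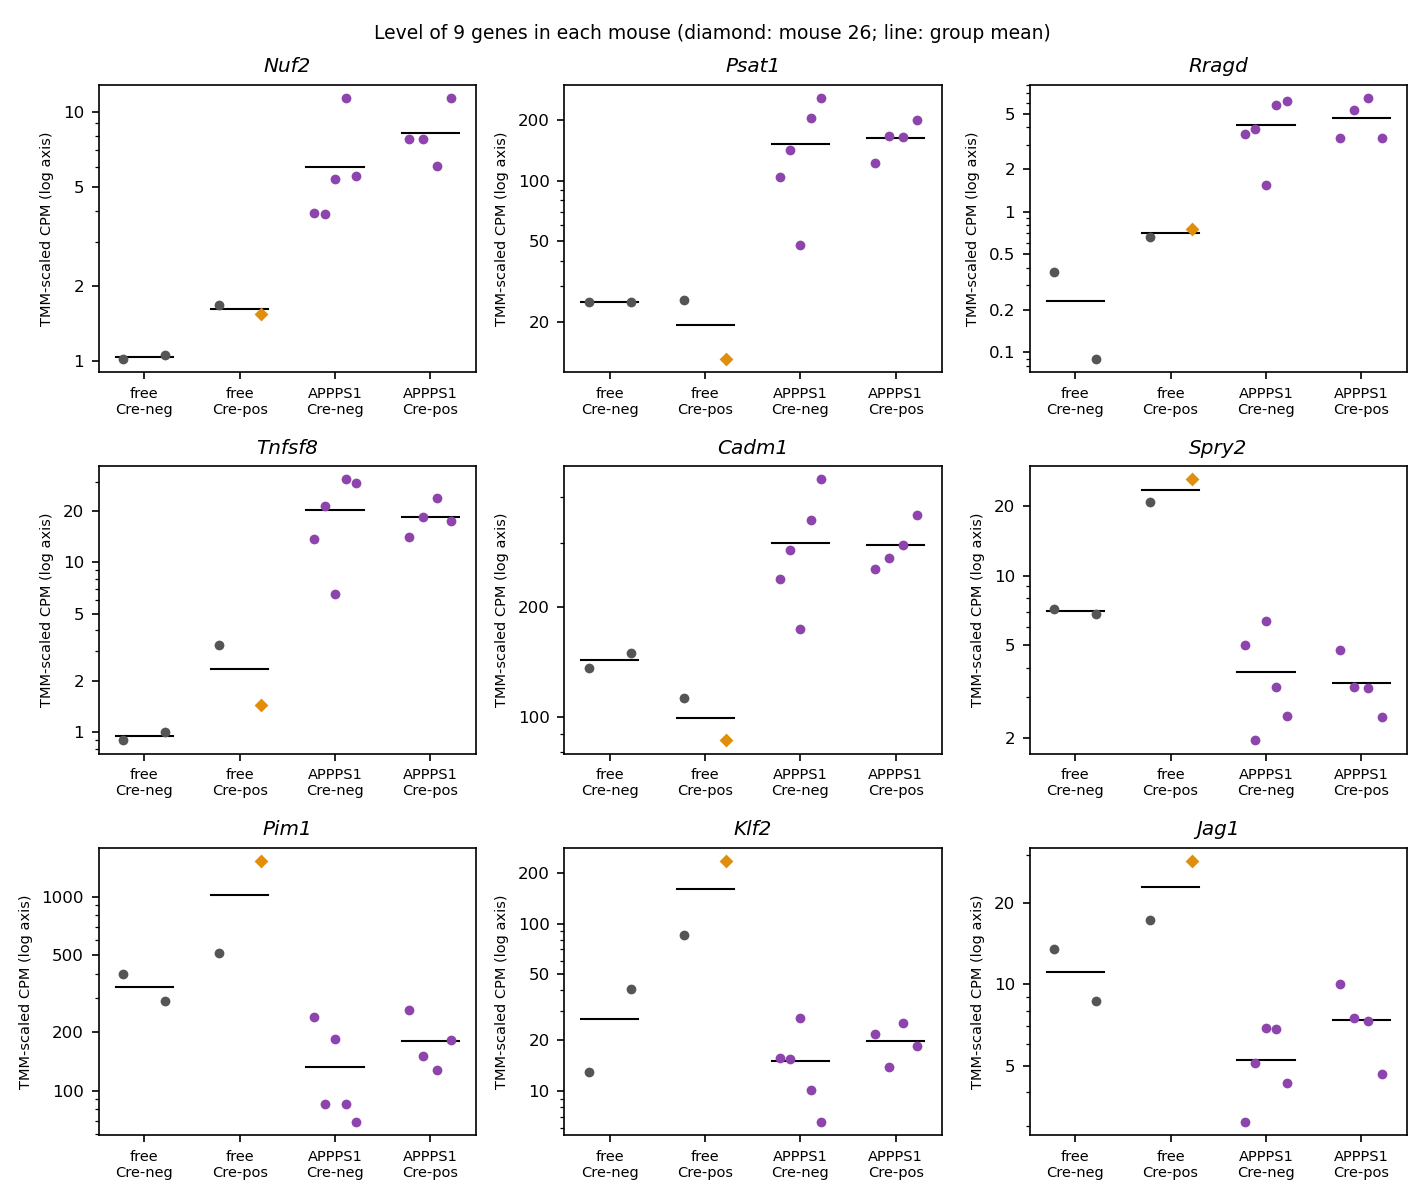
TMM-scaled CPM of 9 genes in each mouse (y axes logarithmic), by genotype and Cre state. Each point is a mouse, the orange diamond is mouse 26 and lines are group means; for Nuf2, Psat1, Rragd, Tnfsf8 and Cadm1 all 9 APPPS1 mice lie above the 4 amyloid-free mice, for Spry2 and Pim1 all lie below, and Klf2 and Jag1 overlap.

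Outside these lists and the disease-associated genes, the largest changes among well-detected genes were upward. Trpm1, a cation channel of pigment cells and retina, had 4 counts over the 4 amyloid-free libraries, all in mouse 26, and 1.73 to 38.9 CPM in APPPS1 libraries (median 10.8). Dcstamp, which macrophages use to fuse, had 52 counts in amyloid-free libraries, 40 of them in 1 library, and 155 to 1345 counts in each APPPS1 library. Ptchd1, a patched-like membrane protein, had 0.478 to 0.961 CPM in amyloid-free and 4.11 to 17.9 in APPPS1 mice (3.96 ± 0.40, edgeR adjusted p = 0.000319). Actr3b, a variant of the Arp3 actin nucleator, had 0.179 to 0.513 and 3.71 to 38.7 CPM (5.45 ± 0.63, adjusted p = 0.000701). Chst2, a sulfotransferase, had 9.64 to 13.7 and 27.9 to 166 CPM (3.18 ± 0.39, adjusted p = 0.000805). Pbk, a mitotic kinase, had 0.671 to 3.11 and 3.85 to 30 CPM (3.6 ± 0.45, adjusted p = 0.000805), and Ctse, the endosomal protease cathepsin E, rose by 3.04 ± 0.51 (adjusted p = 0.0043).

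The largest changes downward included genes that passed without mouse 26 and genes that did not. Pim1, a survival kinase, had 398, 288, 510 and 1533 CPM in mice 465, 759, 22 and 26 and 69 to 260 in APPPS1 mice. The groups did not overlap (-1.94 ± 0.31, edgeR adjusted p = 0.00322), and without mouse 26 the change was -1.41 (adjusted p = 0.0447). Thbs1, thrombospondin 1, changed by -1.92 ± 0.30 (adjusted p = 0.00282; -1.47 without mouse 26). Sik1, a salt-inducible kinase that restrains CREB, changed by -1.89 ± 0.27 (adjusted p = 0.00162; -1.39 without mouse 26). S100a4, a calcium-binding protein of motile leukocytes, had 100 CPM in mouse 26 and 3.51 to 8.92 in the other controls. It changed by -2.17 ± 0.58 (adjusted p = 0.0318), passed in 7 of 13 fits, and changed by -0.84 without mouse 26 (adjusted p = 0.452).

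Within each Cre state the same contrasts rest on 2 amyloid-free mice. In Cre-negative mice 49 genes (0.279%) were higher and 6 (0.0341%) lower, and in Cre-positive mice 643 (3.65%) were higher and 597 (3.39%) lower. The Cre-positive controls are mice 22 and 26. The difference between the Cre states was tested directly: edgeR called 0 genes (0.0%) in either direction, with 1527 at an unadjusted p below 0.05 and a lowest adjusted p of 0.084. DESeq2 called 25 genes with a higher and 26 with a lower effect in Cre-positive mice, and limma voom called 0. Of the 1685 genes called over both states, 1679 had the same sign in each. They were called on the mean of the 2 effects, which favours a shared sign, so this count does not test agreement. Nuf2 changed by 2.54 in Cre-negative and 2.36 in Cre-positive mice, Csf1 by 2.48 and 2.44, and Psat1 by 2.58 and 3.07. Larger gaps stood in either direction: Cenpe was at 3.74 and 1.6, Klf2 at -0.83 and -3.02 and Spry2 at -0.88 and -2.77. Knl1 was at 6.17 and 2.86, a fitted gap that rests on few counts in the Cre-negative controls. None of these 4 passed edgeR's test of the difference (lowest adjusted p = 0.52). The kinetochore list had a median of 2.00 and 1.43 in the 2 states, the DNA replication list 0.64 and 0.79, and the proton pump list 0.35 and 0.43.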

How the data were processed

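RNA of sorted cells was sequenced from libraries made with a SMARTer kit. The deposited table holds raw counts of reads per gene, with mouse and human genes together. Per the submitters' processing notes, bcl2fastq, STAR and Subread featureCounts were used with builds GRCm38 and GRCh38; a strand setting is not stated there. Human genes stayed out of the fits. Counts were filtered with filterByExpr, scaled by TMM and fitted with edgeR 4.0.16 in R 4.3.3, with 1 term per genotype group over 13 libraries. Levels of single genes and mean log2 levels are TMM-scaled CPM. Marker sums are plain CPM, scaled by the mouse gene counts of each library without TMM. Log2 changes are edgeR's, and SE is the change divided by the root of F. A gene was called at a Benjamini-Hochberg adjusted p below 0.05 over 17593 genes. Each library is 1 mouse, so p-values measure the spread between these mice. On data simulated at this design over 16968 genes, the fit found 72% of genes changed 2-fold and 96% of those changed 4-fold. It also called 5 unchanged genes. The changed genes had a mean log2 CPM of at least 1, and no library was made to stand apart from its group. Genes of lower level are therefore not covered by these shares.

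The libraries and the 35 gene lists were chosen with earlier results of these data known. Of 1287 list places, 1254 were tested after the filter. Named genes are the list members of lowest p (up to 4 per list, mean log2 CPM at least 1), members that passed against their list's direction, and the largest changes over all genes (mean log2 CPM at least 3, up to 12 per direction). Other named genes are said to be chosen after their values were seen: these are the Notch, chromatin, astrocyte and monocyte genes, Baiap2l2 and the genes printed with their promoters. Alternatives were DESeq2 1.42.0, limma voom (3.58.1), DESeq2 size factors, no low-count filter, an additive model, a marker covariate, mouse 459 kept, and libraries left out. The series text states 4 mice per APPPS1 group, while the labels give 5 Cre-negative microglia libraries. The medians of like genes, protein-coding genes of the same exon length and level, were added after seeing the data. Some genes are not reported here.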

Additional observations from a re-analysis of the deposited data

Results flagged for a closer look

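Of 292 values, each a gene or list level within an APPPS1 group of 4 or 5 mice, 22 held a mouse whose gap to the next, as a share of the group's range, passed Dixon's limit. Chance gives about 1 in 20. Many of the 22 fell on a few mice, and the groups share those mice across genes, so they are not independent.

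Mouse 475, APPPS1 Cre-positive, was highest in 6 genes of division: Knl1 at 8.143 CPM against 2.877 for the next mouse (gap share 0.875), Cenpe at 10.5 against 5.389 (0.89), Mcm5 at 53.65 against 25.76 (0.851), Kif11 at 10.38 against 4.06 (0.94), Rrm2 at 42.36 against 25.53 (0.849) and Pbk at 29.98 against 17.67 (0.879). It was also highest in Trpm1, at 16.48 against 10.78 CPM (0.99), and lowest in the endoplasmic reticulum list, at 0.12 against 0.3 (0.9). It also had the most counts of the 13 libraries, 57950591. Without mouse 475, 702 genes were higher and 320 lower. In the Cre-negative group mouse 774 was highest in Nuf2, at 11.41 against 5.523 CPM (0.782).

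Mouse 439, the APPPS1 mouse with the highest monocyte and neutrophil marker sum (7307 CPM), was highest in Clec4e at 50.2 against 19.95 CPM (0.713), Gsr at 54.57 against 23.16 (0.821), Gadd45a at 11.15 against 6.152 (0.769) and S100a4 at 8.164 against 3.281 (0.728). It was also highest in the mean level of the tetraspanin and Ms4a list, at 0.24 against -0.32 (0.875), and of the iron list, at 0.09 against -0.15 (0.727). The part of monocytes in these values was not tested.

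Mouse 779 was highest in Kcnj2, at 72.41 against 35.93 CPM (0.819), and lowest in Ugcg, at 8.443 against 14.89 (0.758), and in the PI3K list, at -0.5 against -0.14 (0.857). Mouse 469 was highest in Slc1a2, at 4.018 against 1.835 CPM (0.78), and lowest in the sphingolipid list, at -0.12 against 0.09 (0.724). Among Cre-positive mice, 443 was lowest in the ion channel list, at -0.04 against 0.12 (1.0), and 460 in the protease list, at -0.35 against -0.14 (0.913).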

How the results depend on the processing

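No paired analysis was possible because the compared microglia groups share no mouse. Over both Cre states the fit called 1066 genes higher and 619 lower; leaving out 1 library gave 318 to 1496 and 53 to 945. DESeq2 called 1735 and 987. Keeping mouse 459, whose libraries hold genes of the other sort, left 18 and 1. Without both amyloid-free Cre-positive mice, 63 and 10 were called. That fit compares APPPS1 Cre-negative with amyloid-free Cre-negative mice only, so it is not the contrast over both Cre states. With the astrocyte and endothelial marker covariate, 1 and 0 were called. The cause of these shifts was not tested. In Cre-negative mice, where the fit called 49 and 6, no low-count filter gave 229 and 36, limma voom 3 and 0, DESeq2 400 and 61, mouse 459 kept 0 and 0, and leaving out 1 library 0 to 240 and 0 to 37. In Cre-positive mice, with 643 and 597, DESeq2 gave 1352 and 1055, no filter 902 lower, mouse 459 kept 0 and 0, and leaving out 1 library 0 to 1079 and 0 to 885. For the difference between Cre states, with 0 and 0, no filter gave 16 and 12, DESeq2 25 and 26, and leaving out 1 library 0 to 58 and 0 to 49.

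Of 111 genes named, all 111 kept their side of the threshold with DESeq2, with its size factors and with no filter, 102 with limma voom, 72 without mouse 759, 79 without mouse 26 and 3 with the marker covariate. The 111 include genes that were not called, which keep their side by staying uncalled. With the covariate, 1 of all 1685 called genes was still called. Without both amyloid-free Cre-positive mice, 26 of the 111 kept their side and 84 lost their call. Directions turned with mouse 459 kept for Spry2 (1.12), Jag1 (0.13), Slc1a2 (1.88) and Clu (1.97). They turned for 2 genes that were not called. Spn was 0.21 without both amyloid-free Cre-positive mice, a contrast of Cre-negative mice only. Over the leave-one-out fits Spn was -1.47 to 0.07, highest without mouse 26. P2ry12 was 0.14 with the marker covariate and -0.28 to 0.31 over the leave-one-out fits, highest without mouse 22. Depth was at least 26162612 counts a library, and the 4 amyloid-free mice limit the precision. Sex was not run as a covariate because every library held Xist (71.7 to 326 CPM).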

Other observations

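Lists not described in detail above follow. Of 26 semaphorin, plexin and guidance genes, 3 were higher and 1 lower, and without mouse 465, 759 or 26 these were 1, 2 and 1 higher and 1, 0 and 1 lower. The lower gene, Sema4b, a membrane semaphorin, had 45.5 to 91.6 CPM in amyloid-free and 10.7 to 53.3 in APPPS1 mice (-1.41 ± 0.32, edgeR adjusted p = 0.0173), and did not pass without mouse 759 (adjusted p = 0.0741) or mouse 22. Of 22 circadian clock genes, 0 were higher and 1 lower: Per1, a clock repressor, changed by -0.87 ± 0.24 (adjusted p = 0.0357) and passed in 6 of 13 leave-one-out fits. Of 32 survival and p53 genes, 2 were higher and 3 lower, and without mouse 465, 759 or 26, 1, 1 and 2 were higher and 2, 1 and 0 lower. The higher genes were Bcl2a1b (0.59 ± 0.14, adjusted p = 0.0232, not passing without mouse 465 or 26) and Bcl2a1a, members of a cluster of near-identical anti-apoptotic genes whose counts are uncertain. Of the 49 tested genes of the disease-associated list, 40 were higher, and 30 of these passed in all 13 fits. Of the 15 identity markers, 7 were higher and 0 lower. Their median change was 0.26, against 0.31 for like genes, with 0.08 in Cre-negative and 0.47 in Cre-positive mice. P2ry12, the purinergic receptor that marks homeostatic microglia, had 10390, 9633, 8968 and 4044 CPM in mice 465, 759, 22 and 26 and 5983 to 9412 in APPPS1 mice (-0.07 ± 0.19, adjusted p = 0.837), so mouse 26 was the lowest of the 13 libraries.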
